A study of Mus musculus with 8 samples.

Results

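Staining of a universal DNA array by a mouse antibody against cyclobutane pyrimidine dimers (CPDs) was compared between UV-treated and untreated arrays. The members are the 4 arrays of 8 in the series that were stained with this antibody at a dilution of 1:400, of which 2 had received UV and 2 had not (group labels CPD_UV and CPD_NonUV). The other 4 arrays carried an antibody against 6-4 photoproducts (6-4PPs) at 1:80, again 2 with UV and 2 without. The array carries printed DNA and no cells, and the labels name mouse as the source of both antibodies. The sources used here do not give the UV dose, the staining or how a second strand was made. The labels do not say whether the 2 arrays of a group came from separate treatments, so p-values measure the spread between these arrays, which may be technical.

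UV light can join neighbouring pyrimidines on 1 strand of DNA. In a CPD the bases are linked by a cyclobutane ring, and in a 6-4PP by a single bond that tilts the bases. Both need a dipyrimidine step, which is TT, TC, CT or CC read 5′ to 3′ on either strand. CPDs form most readily at TT, are bulky blocks to polymerases, and are removed by nucleotide excision repair or by photolyases.

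Each array held 122095 different sequences of 60 bases. In 122086 of them a variable part of 27 bases was followed by the same 3′ end of 33 bases, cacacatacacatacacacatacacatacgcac, which holds 0 dipyrimidine steps on either strand. Positions are counted from 1 at the 5′ end of the printed sequence. A step is called printed where it lies in the sequence as given, and complement where it lies in the reverse complement. A total of 550 sequences had no step at all and set the background, 3825 had a single step, and 14650 had a single pyrimidine run. The first 27 bases of the probe nearest to the class median are shown for the classes that carry the main comparison, with the step in capitals. The 4 TT probes show how the bases on both sides of the step change while the step stays.
No step: gtatgcatgcacgtgcgtgtatgcacg
TT between A and A: tatgcataTTatacgtatgtatgcacg
TT between A and G: cgtatgcgtataTTgtatgtatgcacg
TT between G and A: cgtatgcatgTTatatatgtatgcacg
TT between G and G: cgtatgcgTTgtgcgtatgtatgcacg
CT: tatgcacgcacaCTgtatgtatgcacg
TC: cgtatgcgtatgTCgtatgtatgcacg
CC: tatgcacgcgCCgtgtatgtatgcacg

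The probes without a step were the reference on every array. Their median adjusted intensity was 1617 and 1603 on the 2 UV arrays and 1219 and 1048 on the 2 non-UV arrays. The UV arrays were thus both higher, 1.42-fold in the mean, with p = 0.333 by exact permutation (two-sided), the smallest value possible with 2 arrays against 2. This level was subtracted on each array, and the remainder is called the lesion signal, in units of adjusted intensity. The median over all probes then left a lesion signal of 2116 and 1785 on UV arrays, and of 12.2 and -6.74 on non-UV arrays. Among the probes without a step the lesion signal on UV arrays still varied with base composition. It was 23.5 ± 7.62 (SD, n = 2) with 12 or fewer G and C bases of 27, -6.45 ± 3.03 with 13 to 14, and -31.1 ± 6.64 with 15 or more. Signals of this size are therefore within the range of the background itself. Sequences on at least 5 spots had a median coefficient of variation between spots of 13.98% and 14.3% on the UV arrays. UV array 1 was brighter than UV array 2, by 1.13-fold for the lone printed TT step, and most of the SDs given below hold this difference in gain.

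Most sequence classes were brighter with UV, relative to the probes without a step. Of the 170 classes planned, 151 were higher on UV arrays (88.8% of those tested, adjusted p under 0.05 with limma) and 0 were lower. With the classes added after the values were seen, 184 of 206 were higher (89.3%) and 0 were lower. On the single non-UV arrays the lesion signal of the 206 classes lay between -84.8 (7 TT steps, all on the complement) and 65.5 (6 TT steps, all printed), both on non-UV array 1. By single probes, 86071 of 122095 were higher with UV (70.5%) and 577 were lower (0.473%), 71% in all. The share that rose followed the steps in the probe. It was 2.73% of the 550 probes without a step (15 probes) and 26.4% of the 42020 with steps but no TT. It reached 88.5% with TT only on the complement, 98.0% with TT only on the printed strand, and 98.3% with TT on both.

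A lone TT step gave far more lesion signal than any other lone step. With TT printed, the 466 probes had a class median of 7431 and 6551 on the UV arrays and of -8.88 and -9.05 on the non-UV arrays. CT printed followed with 359 and 311, TC with 183 and 153, and CC with 61.5 and 68.6. The UV arrays did not overlap the non-UV arrays in any of the 4 classes. The same lack of overlap was seen for CC on the complement, which did not pass the test, so it does not set these 4 classes apart. Lesion signal at TT was 20.9 ± 0.270 times that at CT, 41.7 ± 1.42 times that at TC and 108 ± 17.9 times that at CC (SD, n = 2). All 6 contrasts between the printed step types passed the test, among 89 planned contrasts of which 58.4% were called higher and 15.7% lower, 74.2% in all. The contrast of TTT with TT stands in that count under both the triplets and the T runs, once per strand. The tests here and below used log2 differences of class medians with the background left in. They are therefore not the log2 of the lesion signal folds. CT exceeded TC by 0.13 on the log2 scale (SE 0.02, adjusted p = 0.00111, limma), and TC exceeded CC by 0.10 (SE 0.02, adjusted p = 0.00327). The calls of the weakest lone steps were narrow. CC printed passed at an adjusted p of 0.0490 and TC complement at 0.0494, and both were lost when any 1 of the 4 CPD arrays was left out. CC on the complement had a lesion signal of 28.4 ± 2.02, near the 23.5 of the step-free probes lowest in G and C, and did not pass (adjusted p = 0.122).

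**Figure D1:**
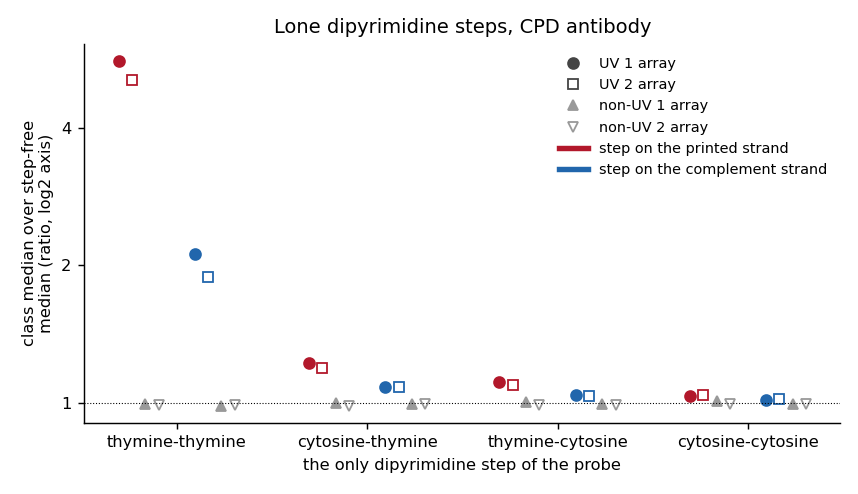
Class median over the median of probes without a step (ratio, log2 axis) for probes whose only dipyrimidine step is the one named, with 1 point per array. Thymine-thymine steps stand apart on both strands on UV arrays, where their lesion signal was 6991 printed and 1608 on the complement, while the non-UV arrays lie at the dotted line of ratio 1.

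The strand that held the step mattered for the size of the signal. A lone TT on the complement gave 1800 and 1416 on the UV arrays, against 7431 and 6551 when printed. In lesion signal the printed step gave 4.38 ± 0.352 times the complement. The log2 difference of the class medians, background included, was 1.42 (SE 0.04, adjusted p = 1.20e-07, limma). Among the other steps the order by type was the same on the complement, with CT at 136 ± 5.19, TC at 62.3 ± 10.5 and CC at 28.4. There TT exceeded each other step and CT exceeded CC (adjusted p = 0.0028, limma), while CT against TC (adjusted p = 0.127) and TC against CC (adjusted p = 0.281) did not pass. For CT the printed step was 2.46 ± 0.157 times the complement (adjusted p = 0.000414) and for TC 2.71 ± 0.125 times (adjusted p = 0.0230, lost when any 1 of 3 of the 4 CPD arrays was left out). For CC the log2 difference was 0.02 ± 0.03 (2 SE) and did not pass (adjusted p = 0.353). The 6-mers gave the same comparison over longer words. In all 847 6-mers with TT on 1 strand only, the median over probes was higher on both UV arrays where the TT was printed, with a median ratio of 2.86 and a range of 1.06 to 6.09. These 6-mers share many probes, so the 847 are no independent measurements.

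The lesion signal of a lone TT depended on the purines at its sides, and A gave more than G on the 5′ side throughout. For printed TT between A and A the UV arrays read 11278 and 10136. Between A and G they read 9138 and 7890. With G before the step, TT followed by A gave 5258 and 4691, and TT followed by G gave 2226 and 2000. Each of the 4 classes was above the next on both UV arrays, so ATTA came first, then ATTG, then GTTA, and GTTG was last. In lesion signal the fold from 5′ G to 5′ A was 2.15 ± 0.0110 before TTA and 4.02 ± 0.114 before TTG. The log2 differences, background included, were 0.90 (SE 0.02, adjusted p = 4.36e-08, limma) and 1.45 (SE 0.03, adjusted p = 4.64e-08). The fold from 3′ G to 3′ A was 1.26 ± 0.0356 after ATT (adjusted p = 3.03e-05) and 2.35 ± 0.0119 after GTT (adjusted p = 3.48e-07). The fold for each side was larger where the other side held G, a difference between folds that was not tested.

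The probes printed above were chosen as nearest to their class median, so their closeness to the class levels follows from the choice. The ATTA probe read 11332 and 10310 on the UV arrays, the ATTG probe 8889 and 7995, the GTTA probe 5010 and 4837, and the GTTG probe 2296 and 1886. The probe without a step read -195 and 242, each an average over 20 spots. The TT, CT, TC and CC probes lie on 1 spot each. The CT probe read 380 and 306, the TC probe 331 and 40.6, and the CC probe 3.82 and 128, and none of these 3 passed the test by itself.

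**Figure D2:**
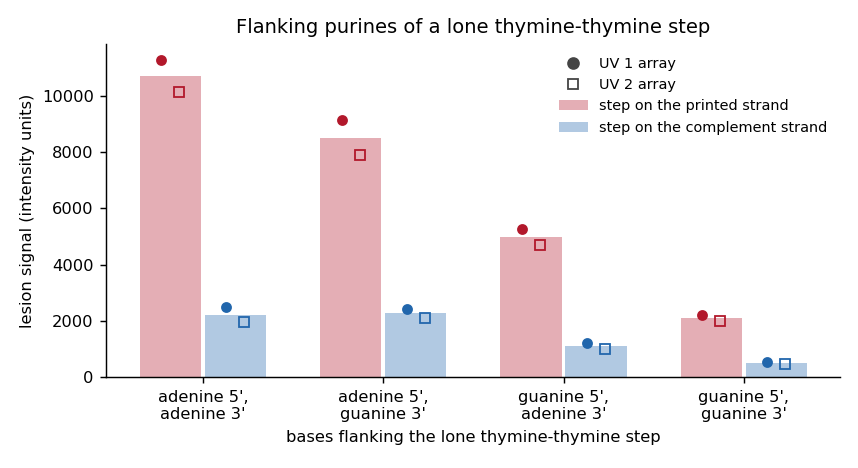
Lesion signal (intensity units) of probes whose only dipyrimidine step is thymine-thymine, by the purines on its 5′ and 3′ side, with bars at the mean of the 2 UV arrays and 1 point per array. On the printed strand the means run from 10707 with adenine on both sides to 2113 with guanine on both sides, and on the complement from 2228 to 495.

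On the complement the 5′ base again separated the classes and the 3′ base did so only behind G. ATTA gave 2228 ± 359 and ATTG 2269 ± 230, and their log2 difference of 0.01 ± 0.08 (2 SE) did not pass (adjusted p = 0.770). GTTA gave 1103 ± 153 and GTTG 495 ± 55.2, a fold of 2.23 ± 0.0615 (adjusted p = 4.81e-05). The fold from 5′ G to 5′ A was 2.02 ± 0.0451 before TTA and 4.59 ± 0.0471 before TTG on this strand.

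Flank contrasts of the weaker steps passed in part, and those that passed were all higher with A. Over TC, CT and CC on both strands, 5′ A was higher than 5′ G in 7 of 12 contrasts and 3′ A higher than 3′ G in 6 of 12, with 0 lower on either side. These shares are not above the 58.4% called higher over all planned contrasts. For TT the counts were 4 of 4 and 3 of 4. Among printed CT classes ACTA was highest with 799 ± 115 and GCTG lowest with 78.4 ± 13.03. Among TC classes ATCA gave 332 ± 0.500 and GTCG 21.8 ± 28.6, and among CC classes ACCA gave 117 ± 10.6 and GCCG 27.8 ± 15.2. GTCG and GCCG did not pass the test against non-UV arrays (adjusted p = 0.314 and 0.462). The calls of ACCA (adjusted p = 0.0393) and GCTG (adjusted p = 0.0161) were lost without any 1 CPD array and without either non-UV array, respectively. On the complement, CT ran from 236 ± 18.2 (ACTA) to 42.5 ± 11.0 (GCTG), TC from 120 ± 17.8 (ATCA) to 12.6 ± 3.13 (GTCG), and CC from 80.5 ± 4.89 (ACCA) to 2.68 ± 6.68 (ACCG). The lowest class of each step on this strand did not pass (adjusted p = 0.257, 0.138 and 0.892). The step-free probes alone ran from 23.5 to -31.1 on UV arrays with rising G and C content. Whether G and C content had a part in the flank contrasts of these weak steps was not tested.

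A cytosine next to TT makes the run 3 or 4 pyrimidines long, so these probes were described apart, in classes added after the values were seen. In front of printed TT, C was intermediate between A and G. CTTA gave 5860 ± 314 against 10707 for ATTA and 4974 for GTTA, and CTTG gave 3389 ± 371 against 8514 for ATTG and 2113 for GTTG. With the added contrasts, 52% of 123 were called higher and 27.6% lower, 79.7% in all. A exceeded C on the 5′ side in 6 of 6 contrasts (largest adjusted p 1.48e-05), and C exceeded G in 5 of 6, the exception being CTTA against GTTA on the complement (adjusted p = 0.169). Behind the step, C was lower than G in 4 of 6 contrasts and higher in 1. The higher one was GTTC printed, at 1.17 ± 0.0121 times GTTG (adjusted p = 0.00119, limma). CTTC against CTTG printed did not pass (adjusted p = 0.865). For ATT the strands differed in value. ATTC gave 7403 ± 521 on the printed strand, 0.871 ± 0.0291 times ATTG, and 950 ± 139 on the complement, 0.418 ± 0.0191 times ATTG.

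The 16 purine-flanked contexts were also estimated together, over all probes with the shared end, by a regression of lesion signal on the counts of each context, with both strands summed. All 16 coefficients were above 0 by the limma test (100% of those tested, largest adjusted p 0.00247). On UV arrays the 6 largest, in units of the background level per step, were ATTA at 3.65 ± 0.257, ATTG at 3.62 ± 0.333, GTTA at 2.09 ± 0.170, GTTG at 1.12 ± 0.0842, ACTA at 0.457 ± 0.0617 and ACTG at 0.298 ± 0.0560. The 4 smallest were GCTG at 0.0955 ± 0.0194, GTCG at 0.0942 ± 0.0162, ACCA at 0.0921 ± 0.0132 and GCCA at 0.0722 ± 0.0103. ATCA, the highest TC context, had 0.196 ± 0.00590, and ACCG, the highest CC context, 0.131 ± 0.00408. The order of TT above CT above TC held here for the highest context of each type. It did not hold for every context, since GCTG lay below ATCA and also below ACCG. ACCG was above ACCA here, whereas ACCA was the highest CC class among the lone steps. With a term for each strand, an alternative added after seeing the data, 27 of 32 coefficients were higher with UV (84.4%) and 2 were lower (6.25%), 90.6% in all. Those lower with UV were GCCA complement, at -0.156 ± 0.0387 (adjusted p = 0.00247), and ACCA complement, at -0.186 ± 0.0124 (adjusted p = 0.00886). The lone steps did not show this fall. Lone ACCA complement had a lesion signal of 80.5 ± 4.89 and lone GCCA complement 22.0 ± 9.33, of which GCCA did not pass (adjusted p = 0.309, limma). Why the signs differ was not tested. ATCG, ATCA and ACCG on the complement did not pass (adjusted p = 0.120, 0.898 and 0.211). With strands summed the order of ATTA and ATTG differed between the UV arrays, at 3.83 against 3.85 and 3.46 against 3.38. On the printed strand alone, at 5.71 ± 0.406 and 5.53 ± 0.466, ATTA was above ATTG on both UV arrays. The arrays there read 6.00 against 5.86 and 5.42 against 5.20. In the lone printed steps ATTA gave 1.26 ± 0.0356 times ATTG. No test was made between these coefficients.

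The signal of a lone TT varied with the A and T content of the bases further out, in a direction that differed between flanks. For printed ATTA, with 0 or 1 A or T among the 4 bases at the next 2 places out on each side, the lesion signal was 11412 ± 1116, and with 3 or 4 it was 10045 ± 206. For ATTG the same classes gave 8182 ± 666 and 8846 ± 700, for GTTA 5711 ± 338 and 4435 ± 278, and for GTTG 2150 ± 168 and 2102 ± 144. For ATTA and GTTA both UV arrays were lower in the class rich in A and T than either array was in the other class. Compared within each array, ATTG was higher in the class rich in A and T, at 9341 against 8653 and 8351 against 7711. GTTG was slightly lower there, at 2204 against 2269 and 2000 against 2031. These values carry no test.

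Among lone triplets, those with a TT step stood far above the others. Probes whose only run was TTT gave 7987 and 6961 on the UV arrays, TTC gave 5865 and 5623, and CTT gave 4706 and 4018. Triplets without a TT step came next. TCT gave 316 ± 55.4, CTC 297 ± 20.8, CCT 217 ± 25.4 and TCC 126 ± 1.14. CCC, with 35.03 ± 5.09, did not pass against the non-UV arrays (adjusted p = 0.584). Against lone printed TT, CTT was 0.623 ± 0.0140 times as bright (adjusted p = 3.81e-06) and TTC 0.824 ± 0.0489 times (adjusted p = 0.00161). On the complement the corresponding values were 1108 ± 177 for CTT, 691 ± 126 for TTC and 1768 ± 167 for TTT. TCT there gave 96.7 ± 26.98, CCT 58.5 ± 3.602, TCC 36.5 ± 13.8, CTC 32.96 ± 8.86 and CCC 26.8 ± 15.1, of which TCC, CTC and CCC did not pass (adjusted p = 0.151, 0.120 and 0.197). TTC was above CTT on the printed strand and below it on the complement, on both UV arrays, and this difference between strands was not tested. The calls of 3 weak triplets were narrow: CCT complement was lost without any 1 CPD array, TCT complement without either non-UV array, and TCC printed without non-UV array 2.

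Longer T runs gave more signal, by less than 1 lone TT for each T added. The run lengths of 2, 3, 4, 5 and 6 printed T gave 6991 ± 623, 7474 ± 726, 9699 ± 400.0, 11895 ± 248 and 12246 ± 1466. From TT to TTT, which adds an overlapping TT step, the log2 difference was 0.07 ± 0.07 (2 SE) and did not pass (adjusted p = 0.139). From TTT to TTTT the rise passed (log2 0.32, SE 0.05, adjusted p = 0.000875), and from 4 to 5 as well (log2 0.29, SE 0.07, adjusted p = 0.00777), although this second call was lost without non-UV array 1 or UV array 2. From 5 to 6 the log2 difference of 0.02 ± 0.16 (2 SE) did not pass (adjusted p = 0.821), with 13 probes in the longer class. On the complement the same lengths gave 1608, 1768, 2327 ± 277, 2601 ± 39.5 and 2746 ± 146. There TTT exceeded TT by 0.08 (adjusted p = 0.0278), a call lost without 3 of the 4 CPD arrays in turn, and TTTT exceeded TTT by 0.22 (adjusted p = 0.00171), while the steps from 4 to 5 and from 5 to 6 did not pass (adjusted p = 0.155 and 0.194).

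**Figure D3:**
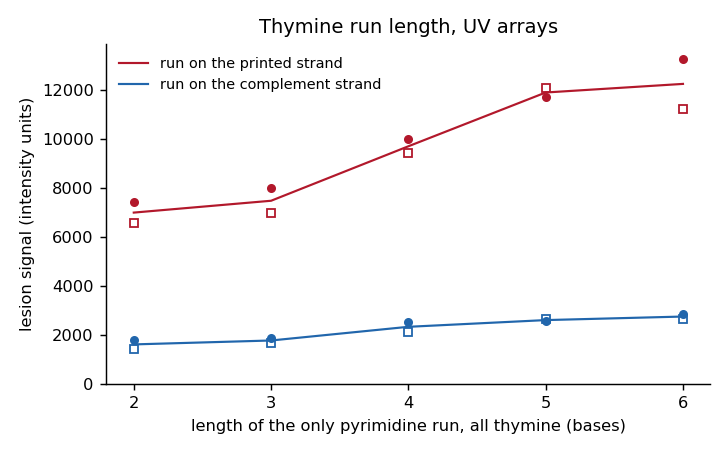
Lesion signal (intensity units) of probes with 1 pyrimidine run made of thymine alone, against the length of the run in bases, with lines through the mean of the 2 UV arrays and 1 point per array. Printed runs go from 6991 at 2 bases to 12246 at 6 bases, and complement runs from 1608 to 2746.

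Probes with 2 separate TT steps had about the summed signal of the single steps. Probes whose only runs were 2 printed TT steps read 14577 and 13491 on the UV arrays, 2.01 ± 0.0693 times a lone printed TT and 101% ± 3.46 of the sum of both. Pairs on the complement read 3699 and 2925, 103% ± 0.404 of the sum. With 1 step on each strand they read 9982 and 8551, 108% ± 0.563 of the sum of a printed and a complement step. All 3 pair classes exceeded the lone step by the limma test (largest adjusted p 4.08e-05). Set against the sum of lone steps with the same flanks, probe by probe, the medians were 101% ± 1.85 (86 probes), 104% ± 2.19 (95 probes) and 91.5% ± 0.108 (265 probes), so pairs across strands lay above their sum on one reckoning and below it on the other.

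Over all probes the lesion signal rose with the number of TT steps, from 238 ± 20.9 with steps but no TT to 17443 ± 2076 with 8. In between, 1 to 7 steps gave 2699, 5349, 7585, 9339, 10989, 12175 and 13429. Each added step gave a rise that passed the test, with a largest adjusted p of 0.00885 (7 against 6, lost without non-UV array 1). With all TT on the printed strand, 1 to 6 steps gave 4954 ± 475, 7931 ± 710, 10805 ± 1011, 13759 ± 1008, 17556 ± 1565 and 20430 ± 1398. With all on the complement, 1 to 7 steps gave 1369 ± 173, 2139 ± 252, 2870 ± 353, 3353 ± 340, 3841 ± 422, 5168 ± 559 and 4976 ± 236. The lowest printed-strand class, with 1 step, was near the level of 6 or 7 on the complement. Without TT, adding steps had little effect on the scale of these values: 1 step gave 110 ± 12.7, the maximum of 432 ± 50.2 came at 9 steps, and 11 steps gave 293 ± 18.2.

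**Figure D4:**
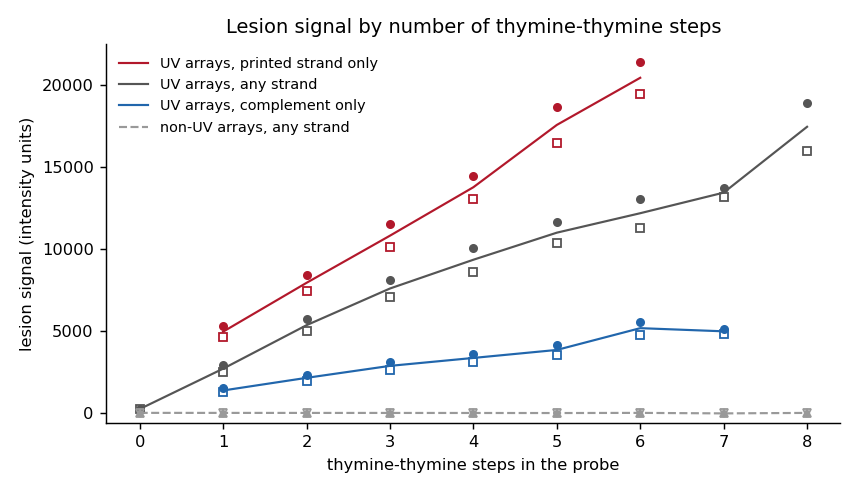
Lesion signal (intensity units) against the number of thymine-thymine steps in the probe, for steps on any strand, on the printed strand only and on the complement only, with lines through the mean of 2 arrays and 1 point per array. With UV the printed-only classes reach 20430 at 6 steps and the complement-only classes 5168, while the non-UV arrays, drawn for any strand, lie between -32.8 and 20.9.

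Other dipyrimidine steps beside a single TT lowered the class median when flanks were left free. Probes with 1 printed TT and no other step had 6991, and with 4 and 8 other steps they had 4623 ± 460 and 4397 ± 486. All 8 of these contrasts were lower (largest adjusted p 0.00231), in classes added after the values were seen. On the complement the class median went from 1608 with 0 others to 1260 ± 152 with 4 and 1399 ± 208 with 8, and 7 of 8 contrasts were lower, all but that with 6 others (adjusted p = 0.0713). The flanks of the TT are not the same in these classes, and within fixed flanks the fall was not general. ATTA went from 10707 with 0 other steps to 9716 ± 690 with 6, and ATTG from 8514 to 8355 ± 652. GTTA went from 4974 to 5907 ± 384, and GTTG from 2113 to 3163 ± 351. On the complement all 4 flank classes were higher with 6 other steps than with 0 on both UV arrays: ATTA 4938 ± 462 against 2228, ATTG 4328 ± 346 against 2269, GTTA 2431 ± 367 against 1103, and GTTG 1330 ± 172 against 495. The values within flanks carry no test, and the other steps could lie anywhere in the probe.

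**Figure D5:**
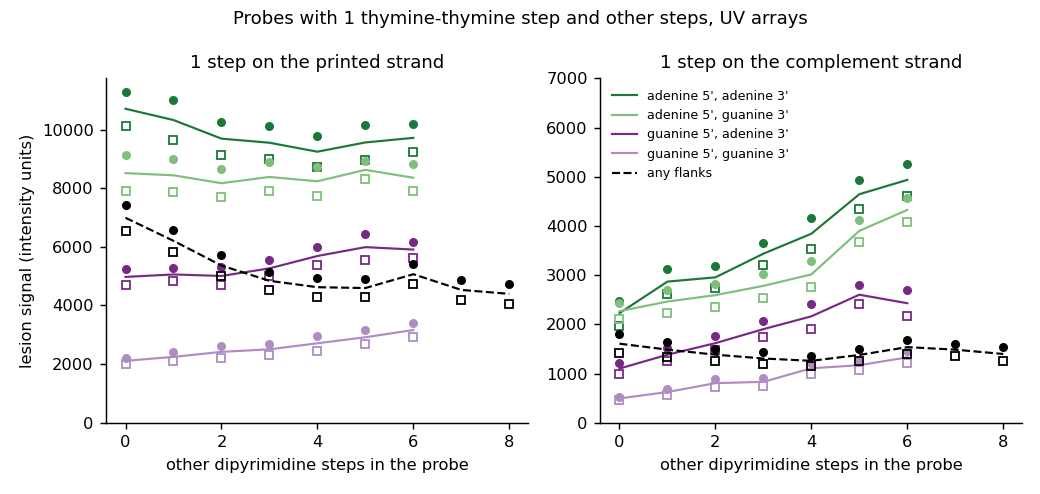
Lesion signal (intensity units) of probes with exactly 1 thymine-thymine step, against the number of other dipyrimidine steps, by the purines flanking the step and for any flanks (dashed), with lines through the mean of the 2 UV arrays and 1 point per array. The dashed line falls from 6991 to 4397 on the printed strand, while at fixed flanks guanine on both sides goes from 2113 to 3163 there and from 495 to 1330 on the complement.

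Lone complement TT steps gave more signal at positions 10 to 14 than at 8, which the regression over all probes did not show for 10 and 12. Within each of the 4 flanks, complement TT was higher at position 12 than at position 8 on both UV arrays: ATTA 2414 ± 282 against 1731 ± 327, ATTG 2583 ± 182 against 1886 ± 300, GTTA 1308 ± 215 against 716 ± 16.2, and GTTG 627 ± 86.0 against 428 ± 64.6. At position 14, ATTA gave 2577 ± 359 and ATTG 2473 ± 308. Without fixing flanks, all 3 contrasts of positions 10, 12 and 14 against 8 passed (largest adjusted p 0.00142). The flanks differ between these positions: 14 was read for ATTA (33 probes) and ATTG (32) only, while 8 also held 17 GTTA and 50 GTTG probes. For printed steps 0 of 3 contrasts against position 7 passed (smallest adjusted p 0.0659). Here position 7 was read for ATTA and ATTG only (33 probes each), while 9, 11 and 13 also held GTTA and GTTG. Position and flank cannot be told apart in the contrasts without fixed flanks. Within flanks, printed ATTA read 9515 ± 396, 11008 ± 1110 and 11858 ± 1293 at positions 7, 9 and 11, and 10323 ± 808 at 13. Printed ATTG read 7340 ± 191, 8083 ± 364, 8628 ± 946 and 9553 ± 902 at the same positions. In the regression with 1 term per position and strand, all 27 terms were above 0 (100% of those tested, largest adjusted p 0.000343). The printed terms, from position 6 to 19, lay between 2937 ± 212 and 8143 ± 864 in intensity units, with the lowest at 12 and the highest at 19. The complement terms, from 6 to 18, were 830 ± 227 at 6, 679 ± 85.05 at 8, 606 ± 91.5 at 9, 657 ± 5.12 at 10 and 664 ± 63.4 at 12. They were higher at 14 (1491 ± 146) and highest at 18 (2784 ± 211), towards the shared end. The regression held no term for the flanks of the TT, so position and flank cannot be told apart in these terms either.

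The 6-mers ordered the probes in the same way, with the caution that a 6-mer is read over all probes that hold it and so includes their other steps. Every 6-mer tested was higher with UV (100% of those tested), so this count says nothing of single words, and 16 of them lie in the shared end. The highest was TAATTA with a lesion signal of 13431 ± 1317 over 170 probes. AATTAA had 13410 ± 1436 and AATTAC had 13360 ± 1418. They were followed by ATTGCG with 13197 ± 1341, CAATTA with 12843 ± 1311 and AAATTA with 12807 ± 1284. The last 4 of the 10 highest were AAAATT with 12284 ± 1156, AATTAG with 12118 ± 1023, AATTAT with 12077 ± 1317 and AATAAT with 11982 ± 1150.5. All 10 contain ATT on at least 1 strand and 0 contain GTT. The 5 lowest with TT were GAAGTA (1423 ± 127), AACGTA (1478 ± 183), ACGTTC (1711 ± 241), TGCGAA (1771 ± 189) and GTTGCA (1823 ± 175). Of these 3 hold GTT and 0 hold ATT. Median lesion signal was 7896 over 233 6-mers with ATT, 4392 over 693 with TT but no ATT, 855 over 1082 with other steps alone and 932 over 56 without a step. The 8 highest without TT began with GCGCGA at 3603 ± 404, CGCACG at 3560 ± 393, GCGCAC at 3481 ± 387 and TGCGCA at 3468 ± 388. ATGCAT had 3168 ± 335, TAGCTA had 2947 ± 271, AGTGCA had 2929 ± 320 and CGCGCA had 2891 ± 289. Of these, 7 lie on 4533 or more probes each, up to 57686, and TAGCTA, on 166 probes, holds CT between G and A on both strands.

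The brightest probes with a single pyrimidine run are single spots. The 4 highest by the mean log2 value on the UV arrays are shown because they mark the upper end of what 1 run gave, with the run in capitals.
Rank 1: gtatgcaTTCCTTTCTTTTTgcgcacg
Rank 2: gtatgcaTTTCCTTTCTTgcgcgcacg
Rank 3: gtatgcaTTCCCCTatatgtatgcacg
Rank 4: cgtatgcacaTTatatatgtatgcacg
The rank 1 probe read 38770.5 and 26354 and the rank 2 probe 30904 and 23242.5. The rank 3 probe read 8652 on UV array 1 and 76539 on UV array 2, and the rank 4 probe, a lone ATTA step, read 33337 and 16832 against a class median of 10707. Each lies on 1 spot, and the 2 arrays disagreed more than they did for the classes. Over all lone runs of any composition, lengths of 3 to 8 printed pyrimidines rose from 426 ± 45.7 to 5380 ± 331, and complement runs from 188 ± 11.0 to 860 ± 35.6. Another 2 sequences, without the shared end and with 33 and 34 steps, were printed on 100 spots each. With 10 printed TT steps the first gave 23865 ± 1984, and with 5 printed TT steps the other gave 29723 ± 1938.

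The 6-4PP antibody on the same array design shows where the CPD pattern differs. Its UV effect differed from that of the CPD antibody in 138 of 170 classes (81.2%) and in 59 of 89 contrasts (66.3%, limma interaction). Taken as a percentage of the lone printed TT of the same antibody, lone TC gave 2.40% with CPD and 45.7% with 6-4PP. GTTA kept 71.2% with CPD and 8.50% with 6-4PP, and TTT 107% and 59.9%. The log2 difference of ATTA over GTTA was 0.90 with CPD and 2.50 with 6-4PP, and the interaction was -1.60 (adjusted p = 9.43e-08). CT was above TC with CPD and below it with 6-4PP (interaction 1.03, adjusted p = 7.13e-07). The antibodies differ in dilution as well as target, so levels in intensity units are not compared between them, and parts of dilution and target in these differences cannot be told apart.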

How the data were processed

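The 4 arrays with the CPD antibody (2 with UV, 2 without) were compared, and the 4 arrays with the 6-4PP antibody entered the same fits. Each deposited file gave the fluorescence intensity of 180880 spots, per the file headers. The adjusted intensity in the deposited files was the scanner intensity divided by the median around the spot, times 1 constant per array. The scanner ceiling was 65535, and 112 to 194 spots with a sequence reached it on the CPD arrays. No spot was flagged (0 spots). The sources used here do not give software, background correction, UV dose or staining protocol. The 175866 spots with a sequence held 122095 different sequences, 111165 of them on 1 spot. Log2 adjusted intensities were averaged over spots of 1 sequence. The median over a class of probes was set against the median of the probes without a dipyrimidine step, as a log2 ratio for the tests and as a difference in intensity units (lesion signal) for the description.

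Classes (at least 10 probes), contrasts of classes, 6-mers, probes and regression coefficients were each fitted with limma 3.58.1 (lmFit and eBayes, R 4.3.3) over all 8 arrays with 1 mean per group. Benjamini-Hochberg adjustment ran over each table, with a threshold of 0.05. For array levels, exact permutation (two-sided) was used, whose smallest p is 0.333 here. The regression on 64 tetranucleotide contexts had 8 exact collinear relations between its counts, so the coefficients of the 16 contexts with purine flanks were read and 46 others could not be separated. Regressions left out the 9 sequences without the shared 3′ end. Scripts ran in Python 3.11.15 (pandas 2.3.3, numpy 2.4.6, matplotlib 3.10.9, scipy 1.17.1), and the fits were tested on simulated data.

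Named in the text were the 4 step types on each strand, the flank classes of lone TT, the highest and lowest flank class of the other steps, the lone triplets and the T runs. Of the 6-mers, the 10 highest, the 8 highest without TT and the 5 lowest with TT were named. Of the contexts, the 6 largest, the 4 smallest and the highest and lowest of each step type were named. The printed probe of a class is the one nearest to its median, and the 4 highest probes with 1 pyrimidine run are shown. These classes and lists were chosen with earlier results of these data known, and the classes with C beside TT or with other steps beside 1 TT were chosen after seeing the values. The alternatives tried were the normalised column, an arithmetic mean of spots, saturated spots left out, a mean for the background, a mean over the probes of a class, a linear scale, removal of the dimmest 25 percent of probes, at least 30 probes, a fit of the CPD arrays alone, a replicate block, trended and robust eBayes, omission of each CPD array in turn, an offset of 100 and a regression on the log2 scale. The 5014 spots without a sequence entered no comparison.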

Additional observations from a re-analysis of the deposited data

Results flagged for a closer look

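Spots without a sequence entered no comparison, and their median adjusted intensity was higher on the CPD UV arrays than on the non-UV arrays in each kind. The ERCC spots (720, with a blank name) had 12060.1 ± 1614.79 with UV and 1048 ± 48.0 without, a ratio of 11.5, and stood at 7.49 times the probes without a step. Dark corner spots (2328) had 4553.08 against 1017 (ratio 4.48), negative control spots (600) had 4167 against 982 (ratio 4.25), and other named control spots (1206) had 4793.89 against 1043 (ratio 4.59). The spots named NA (160) had 936.55 against 842 (ratio 1.11). With the 6-4PP antibody the ERCC spots had 25851 with UV and 947 without.

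In 7 contrasts the 2 antibodies moved in opposite directions, by the limma test in each antibody and by the interaction. CT against lone TC on the printed strand was 0.13 on the log2 scale with CPD and -0.89 with 6-4PP, an interaction of 1.03 (adjusted p = 7.13e-07). CTT against TT was -0.53 and 0.49 on the printed strand (interaction -1.02, adjusted p = 1.64e-06) and -0.24 and 0.46 on the complement (interaction -0.70, adjusted p = 1.78e-06). TTC against TT on the printed strand was -0.24 and 0.17 (interaction -0.41, adjusted p = 0.000635). On the complement, TTT against TT was 0.08 and -0.23 (interaction 0.31, adjusted p = 0.000424), and CTC against TT was -0.97 and 0.20 (interaction -1.17, adjusted p = 1.15e-05). Probes with 8 TT steps against 7 gave 0.30 and -0.35 (interaction 0.65, adjusted p = 0.000544), with 15 probes in the class of 8. With 2 arrays a group, no check for an array that stands apart within its group was possible.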

How the results depend on the processing

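Counts of calls stayed within 1.5 times the reported ones, except with a mean over the probes of a class, which gave 41 of 89 contrasts and 85 of 170 classes for the antibody difference. Leaving out 1 CPD array gave 136 to 147 classes, 56 to 64 contrasts, 78946 to 82834 probes, all 6-mers, 16 contexts and 27 position terms. The replicate numbers did not pair the arrays (correlation 0.00079 over probes), and the replicate block gave 142 classes, 63 contrasts, 84274 probes, all 6-mers, 16 contexts and 27 position terms. For the named features, direction and call were as reported in 1070 of 1147 class values, 871 of 932 contrast values, 205 of 208 context values, and all 345 6-mer and 351 position values over the alternatives run. The sign turned in 26 values (log2 unless stated), and the cause was not tested. With a mean over probes these were GCTG printed -0.212, CCC complement -0.0740, CTC complement -0.0606, TC over CC printed -0.0162, GTTA over GTTG complement -0.0414, T run 5 over 4 complement -0.0609, 6 over 5 complement -0.982 and TC by strand -0.0170. With the normalised column they were CCC complement -0.00472, ATTA over ATTG complement -0.0483 and T run 6 over 5 complement -0.0765. Without the dimmest 25 percent of probes they were CC printed -0.0635, TTT over TT printed -0.0669 (counted in both families), ATTA over ATTG complement -0.0201, T run 5 over 4 complement -0.0325 and CC by strand -0.256. ATTA over ATTG complement was -18.8 intensity units on the linear scale, and -0.0222 to 0.0479 with 1 array left out, below 0 without non-UV array 2 or UV array 1. Leaving out 1 array also gave CCC printed -0.00306 to 0.0295, ACCG complement -0.00170 to 0.00677, and T run 6 over 5 printed -0.107 to 0.146. The GCCG context was -0.000819 in the log2 regression. The slide as a block was not run, since the files name no slide. Signal over background limited the weak classes: CC printed at 65.1 and TC complement at 62.3 intensity units lost their calls without any 1 CPD array.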
